A study of Mus musculus with 2 samples.

Results

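The replication-dependent histone genes were examined in WT and STAP-1 KO chronic myeloid leukemia (CML) leukemic stem cells (LSCs) of the mouse. Members were all genes whose symbol begins with Hist1h, Hist2h, Hist3h or Hist4h, which gave 67 of the 23284 genes listed. Of these, 53 lie in the Hist1 cluster on chromosome 13, 10 in Hist2 on chromosome 3, 3 in Hist3 on chromosome 11 and 1 in Hist4 on chromosome 6. By protein, 6 encode linker histone H1 and 61 encode core histones, with 18 H2A, 18 H2B, 12 H3 and 13 H4 genes. One member, Hist3h2bb-ps, carries a pseudogene name, and the other 66 are annotated as protein coding.

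RNA-seq was performed on 2 libraries, 1 from WT and 1 from STAP-1 KO cells. In both groups, LSK (lineage-negative Sca-1+ c-Kit+) cells of C57BL/6J background were transduced with a retrovirus carrying human BCR-ABL and GFP and were injected with host-strain bone marrow into C57BL/6SJL recipients after lethal irradiation. At day 11 of this first transplantation, GFP+ CD45.2+ LSK cells were sorted. The WT donors were wild type at the STAP-1 locus, and the STAP-1 KO donors carried a targeted disruption of that locus. The mice of the study were 8 to 14 weeks old, and how many mice went into each library is not given in the sources used here. With 1 library per genotype there is no replicate error, and no p-value can be given.

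Histone octamers of H2A, H2B, H3 and H4 wrap the DNA into nucleosomes, and H1 binds the linker DNA between them. Replication-dependent histone genes are transcribed mainly in S phase, when new chromatin is built. Most of their mRNAs carry no poly(A) tail and end instead just after a conserved stem-loop, which is bound by the stem-loop binding protein Slbp, while polyadenylated forms made by reading on to a downstream poly(A) site are also known. Reverse transcription in the SMART-Seq v4 kit used here starts from an oligo(dT) primer, so the values reported below are mainly of polyadenylated molecules and are not a measure of total histone mRNA.

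The 3′ end that sets these genes apart was read from the GENCODE M21 transcripts (GRCm38, the build named mm10 in the processing notes). A stem-loop of 16 bases, with a 6-pair stem that opens with GG and a 4-base loop that starts with T, was searched for in the first 150 bases after the stop codon. It was present in 45 of the 66 members with a coding transcript (68.2%), and only 51 of the 66 are annotated far enough past the stop codon to hold one. Among 21670 other protein-coding genes, 20 matched (0.0923%). The stem-loops of 7 members are shown because they represent each class or carry the values described below. Capitals mark the stem-loop, written as DNA on the coding strand with 5 flanking bases on each side, and the interval is that of the 16 capitals.
Hist1h1c, chr13:23739512-23739527 (+): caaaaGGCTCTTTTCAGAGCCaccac
Hist3h2a, chr11:58955172-58955187 (+): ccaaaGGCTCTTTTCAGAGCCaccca
Hist1h2bg, chr13:23571843-23571858 (+): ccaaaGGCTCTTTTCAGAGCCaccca
Hist1h3d, chr13:23576244-23576259 (+): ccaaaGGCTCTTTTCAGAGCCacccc
Hist1h4d, chr13:23581950-23581965 (+): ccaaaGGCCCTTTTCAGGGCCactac
Hist1h4i, chr13:22040966-22040981 (-): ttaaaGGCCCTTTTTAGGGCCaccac
Hist1h4j, chr13:21735437-21735452 (+): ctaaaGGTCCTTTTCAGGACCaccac
The form shown for Hist1h1c was the most frequent and occurred in 25 members of several classes, the form of Hist1h4d in 7, and the form of Hist1h4i and the form of Hist1h4j in 2 each.

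Upstream of their starts, the members also shared promoter letters. RefSeq promoters on GRCm38.p6 were found for 61 members (62 promoters), and the 250 bases before each start were searched on both strands for TATAAA, for CCAAT, for the octamer ATTTGCAT and for the H1 box AAACACA. The CCAAT letters were present in 82.3% of the histone promoters and in 33.8% of all 32851 promoters, TATAAA in 46.8% and 12.4%, and the octamer in 22.6% and 1.60%. Where an H2A and an H2B gene lie head to head, the same site between their starts can be counted for both. These shares and the counts below are therefore not all of independent promoters. The counts by class were these. The H1 box, which 14.5% of the histone promoters and 6.25% of all promoters held, was in 5 of 6 H1 members and in 2 H2A and 2 H2B members, the octamer in 7 of 18 H2A and 7 of 15 H2B members and in no H1, H3 or H4 member, and CCAAT in every H1, H2A and H2B member with a promoter in the table but in 8 of 10 H3 and 3 of 12 H4 members, while TATAAA was in members of every class (4 of 6 H1, 7 of 18 H2A, 8 of 15 H2B, 4 of 10 H3 and 6 of 12 H4). The 150 bases before the start of 3 members whose values are described below are given with these motifs in capitals.
Hist1h1c, chr13:23738657-23738806 (+): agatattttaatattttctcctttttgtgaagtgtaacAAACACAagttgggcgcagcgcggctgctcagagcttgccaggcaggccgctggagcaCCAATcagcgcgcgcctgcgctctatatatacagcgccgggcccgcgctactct
Hist1h4d, chr13:23581418-23581567 (+): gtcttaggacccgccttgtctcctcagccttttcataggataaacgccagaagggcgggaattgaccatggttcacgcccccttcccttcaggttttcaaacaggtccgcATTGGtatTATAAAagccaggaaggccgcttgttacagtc
Hist1h2ac, chr13:23683960-23684109 (-): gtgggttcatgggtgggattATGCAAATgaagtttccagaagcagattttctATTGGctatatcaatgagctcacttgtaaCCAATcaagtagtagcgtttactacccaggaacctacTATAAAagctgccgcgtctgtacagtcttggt
ATTGG and ATGCAAAT are CCAAT and the octamer read on the opposite strand. These are letter matches and not measured binding.

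Values are FPKM, that is, sequenced fragments per kilobase of a gene scaled to the number mapped in the library. They are per length, but the low values fit a length with about 210 bases taken off each transcript in the STAP-1 KO library and nearly as many in WT, so that for the shortest genes the level depends strongly on the length the authors used, and levels of different short genes are comparable only roughly. Histone transcripts are short, with a median longest annotated transcript of 534 bases (312 to 7425) against 3244 for all genes with a ratio, and 63 of the 67 have a single exon. Many are close copies of each other. Over 50% of the 75-base windows of 25 members, the length of a read here, also occurred in another member, while 8 members shared none. The 13 H4 genes encode 1 identical protein of 103 residues, and 9 of the 18 H2A genes encode another. The values of such copies are uncertain one by one, because reads that fit several copies may be divided or dropped, and sums over a class are therefore given beside single genes.

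The files hold no read counts. The smallest values rise in steps worth 1 read, and from these steps the libraries were estimated to hold 7490000 (WT) and 10480000 (STAP-1 KO) reads, on the scale of the FPKM values. These estimates rest on low-expressed genes, of which 44.4% and 49.3% came within 0.01 of whole reads. Of the 54 members detected in at least 1 library, 32 gave values within 0.1 of whole reads in both libraries at 1 of the lengths tried (13 at the coding length, 8 at the RefSeq length and 11 at a GENCODE length), a looser match than the one above, and 24 of those had fewer than 10 reads in both libraries. For the other 22 the reads were computed from an assumed length, the RefSeq span in 19 and a GENCODE transcript in 3, and a longer true length would mean more reads and narrower intervals. Estimated reads are given below with 95% exact (Clopper-Pearson) intervals on the ratio, which cover counting error only and neither amplification nor differences between mice.

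The targeted gene Stap1 was at 62.0 FPKM in WT and 0.309 FPKM in STAP-1 KO, as the labels require. Of the genes used in the sort, Kit was at 468 and 30.1 FPKM and Ly6a (Sca-1) at 285 and 106 FPKM, and Ptprc, which encodes CD45, was at 107 and 38.2 FPKM. Some marker lists of mature cells also differed. In STAP-1 KO, all 9 mast cell markers were lower by 2-fold or more (summed 49000 to 4282 FPKM) and all 5 primary granule markers of myeloid cells at least 2-fold higher (564 to 4623 FPKM). Of 7 erythroid markers 2 were lower and none higher, and of 5 megakaryocyte markers 1 was higher and 1 lower. Over all genes with a ratio, 11.2% were at least 2-fold higher and 21.9% at least 2-fold lower, so these 2 small lists show no clear difference. The part of cell composition in the histone values was not tested, and fewer cells of a type cannot be told apart from less RNA per cell.

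Most histone genes were low, and a few held most of the signal. Of the 67 members, 13 were listed at 0 in both libraries (19.4%, against 35.4% of all genes), 9 at 0 in WT only, 1 at 0 in STAP-1 KO only and 44 above 0 in both. The mean of both libraries was at least 1 FPKM for 40 members and at least 10 FPKM for 10 members, and those 10 held 87.9% of the summed histone FPKM in WT and 76.6% in STAP-1 KO. All members together made up 0.0922% of the summed FPKM of the WT library and 0.0788% of the STAP-1 KO library. The members at 0 in both libraries were mostly those with close copies, since 9 of the 13 shared over 50% of their windows with another member, against 16 of the 54 detected members and none of the 10 highest.

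**Figure D1:**
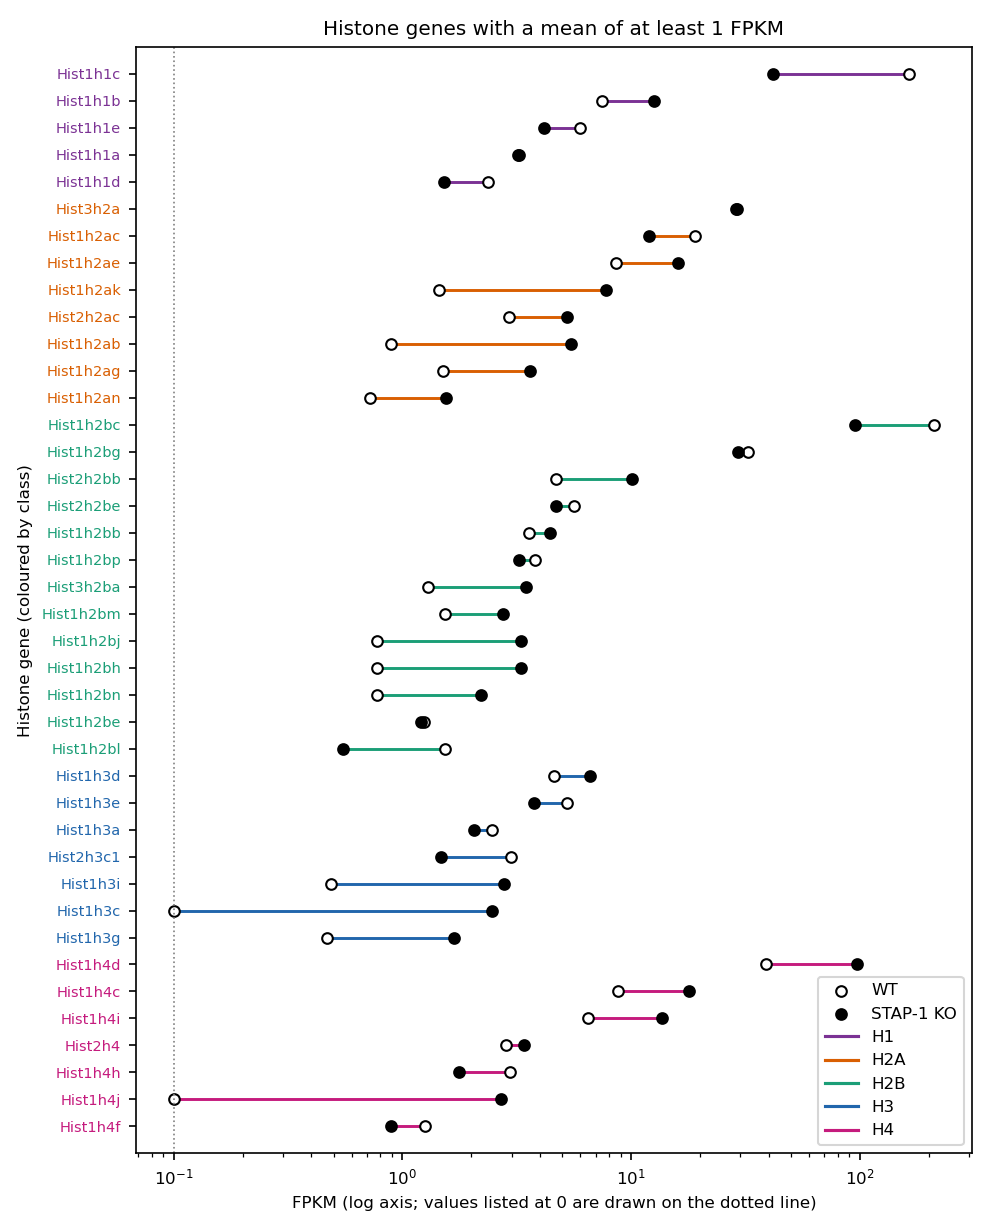
FPKM in the WT (open) and STAP-1 KO (filled) library on a log axis for the 40 histone genes that averaged 1 FPKM or more, coloured by class and ordered by level within class. Each point is 1 library. Hist1h1c and Hist1h2bc lie far to the left in the STAP-1 KO library, the H4 genes Hist1h4d, Hist1h4c and Hist1h4i lie to the right, and Hist3h2a and Hist1h2bg nearly coincide.

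The ratio of the libraries was taken as log2((STAP-1 KO + 0.1)/(WT + 0.1)) for genes that averaged at least 1 FPKM and had at least 0.1 FPKM in each, which left 38 members. In STAP-1 KO, 14 members (36.8%) were at least 2-fold higher and 3 (7.89%) at least 2-fold lower, and the other 21 were within 2-fold. Of 10893 genes tested in the same way, 11.2% were at least 2-fold higher and 21.9% at least 2-fold lower. The median log2 ratio was 0.40 for the members (range -1.98 to 2.48) and -0.04 for all genes. Genes with transcripts of at most 1000 bases, which are closer to the histone genes in length, had a median of 0.41, with 20.6% of 490 higher and 15.9% lower, and those of them with a mean of 1 to 10 FPKM had a median of 0.10.

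These counts lean on members with very few reads. Of the 14 higher members, 10 had at most 3 estimated WT reads, and 7 passed the floor of 1 FPKM only through their STAP-1 KO value, so that the STAP-1 KO value had to be above the WT value. In the mirror case, 2 members passed only through WT, and 1 of them, Hist1h2bl, was among the 3 lower. Among the 29 members at 1 FPKM or above in both libraries, 7 were higher (24.1%), 2 were lower (6.90%) and the median log2 ratio was 0.01. Of the 10108 genes past this floor, 10.3% were higher and 18.9% lower, with a median of -0.01. The counting interval of the ratio lay wholly above 1 for 4 of the 7 higher members past this floor and for 1 other, Hist1h2ab, which had passed only through its STAP-1 KO value, and wholly below 1 for 2 of the 3 lower members.

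**Figure D2:**
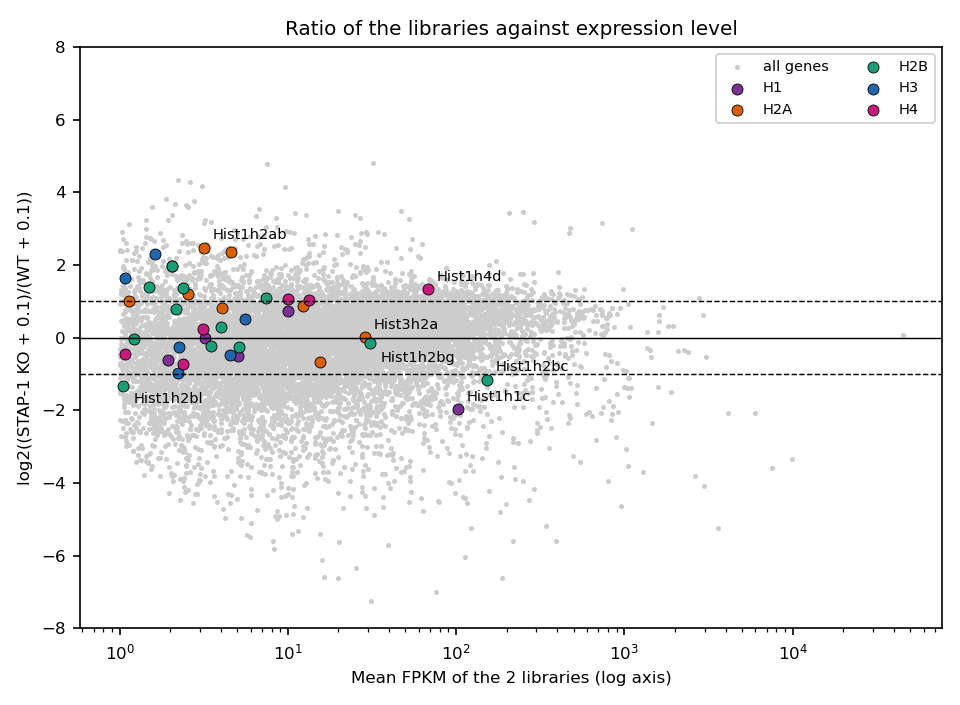
Log2 ratio of STAP-1 KO to WT against the mean FPKM of both libraries (log axis) for all 10893 genes with a ratio (grey) and for the 38 histone genes (coloured by class). Dashed lines mark 2-fold. Above 10 FPKM, 3 histone genes lie above and 2 below the dashed lines, while most of the higher members lie below 10 FPKM.

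The sum over all members was lower in the STAP-1 KO library, at 476 FPKM against 599 FPKM in WT (ratio 0.795), which is the opposite direction to the median. A pair of genes accounted for this. Hist1h1c and Hist1h2bc together held 62.8% of the histone FPKM in WT and 28.7% in STAP-1 KO. Without them, a selection made after their values were seen, the sum was 223 FPKM in WT and 339 FPKM in STAP-1 KO, a ratio of 1.52 with a counting interval of 1.38 to 1.68 from about 608 and 1062 reads.

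**Figure D3:**
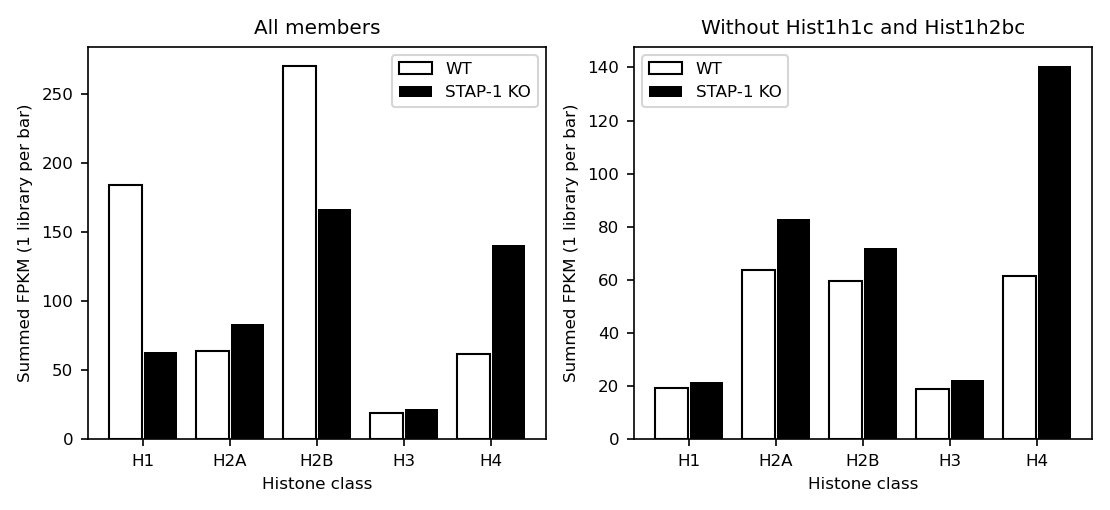
Summed FPKM per histone class in the WT (white) and STAP-1 KO (black) library, for all members (left) and without Hist1h1c and Hist1h2bc (right, with another scale). Bars start at 0 and each is 1 library, without error bars. H1 and H2B are lower in STAP-1 KO on the left and slightly higher on the right, while H4 is higher in both.

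Linker histone H1 was the class with the strongest lower sum, and this was due to Hist1h1c, which encodes the subtype H1.2 (H1f2 in RefSeq). Hist1h1c (ENSMUSG00000036181.2, chr13:23738808-23740367, + strand, single exon) was at 165 FPKM in WT and 41.8 FPKM in STAP-1 KO. The ratio was 0.254 (counting interval 0.217 to 0.296, about 638 and 227 reads), with a log2 ratio of -1.98, the lowest of the 38. The H1 sum was 184 FPKM in WT and 63.4 FPKM in STAP-1 KO, and without Hist1h1c it was 19.2 and 21.6 FPKM.

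The other H1 genes stood at a much lower level, and the 4 with a ratio were within 2-fold, 3 of them below 0 on the log2 scale. Hist1h1b (H1.5) was at 7.48 FPKM in WT and 12.6 FPKM in STAP-1 KO, a ratio of 1.68 (1.10 to 2.61). Hist1h1e (H1.4) was at 5.95 and 4.18 FPKM, and Hist1h1d (H1.3) at 2.36 and 1.52 FPKM. Hist1h1a (H1.1) was level at 3.22 and 3.19 FPKM. The counting intervals of Hist1h1e, Hist1h1d and Hist1h1a all included 1. Hist1h1t, the linker histone of the testis, was at 0.189 and 0.136 FPKM, which is 1 read in each library. None of the 5 H1 genes other than Hist1h1c passed 2-fold in either direction.

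H2A genes were, for the most part, within 2-fold or higher. Their counts stand beside 11.2% of all genes higher and 21.9% lower, and 20.6% and 15.9% of genes with transcripts of at most 1000 bases. Of the 8 with a ratio, 4 were at least 2-fold higher and none lower, with a median log2 ratio of 0.95 (0.85, with 2 higher, over the 6 at 1 FPKM or above in both libraries), and the H2A sum was 63.9 FPKM in WT and 83.1 FPKM in STAP-1 KO (ratio 1.301, counting interval 1.05 to 1.61). The gene with the highest level, Hist3h2a (ENSMUSG00000078851.4, chr11:58954685-58956830, + strand), which lies outside the large cluster, was at 28.7 and 29.0 FPKM, with a counting interval of 0.726 to 1.41. Hist1h2ac was at 19.03 and 11.91 FPKM (0.386 to 1.01) and Hist1h2ae at 8.61 and 15.99 FPKM (1.13 to 3.15). Both encode the same H2A protein. The interval of Hist1h2ae lay above 1, and that of Hist1h2ac included 1.

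The largest log2 ratios of all members were also in H2A, at low levels. Hist1h2ab was at 0.895 FPKM in WT and 5.45 FPKM in STAP-1 KO, a log2 ratio of 2.48 from 2 and 17 reads (ratio 6.09, interval 1.45 to 54.3). Hist1h2ak was at 1.44 and 7.75 FPKM, a log2 ratio of 2.35 from 2 and 15 reads (ratio 5.37, interval 1.25 to 48.4). The intervals are wide because the WT library held 2 reads of each. Hist2h2ac was at 2.93 and 5.25 FPKM. Hist1h2aa, which is expressed in the testis, was listed at 0 in both libraries.

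Of the 13 H2B genes with a ratio, 5 were at least 2-fold higher, 2 at least 2-fold lower and 6 within 2-fold (all genes 11.2% higher and 21.9% lower). Hist1h2bc (ENSMUSG00000018102.5, chr13:23684199-23692908, + strand, 2 exons) had the highest FPKM of the class, at 211 FPKM in WT and 94.99 FPKM in STAP-1 KO. The ratio was 0.450 (0.414 to 0.488, about 1499 and 944 reads) and the log2 ratio -1.15. The H2B sum was 271 FPKM in WT and 167 FPKM in STAP-1 KO, and without Hist1h2bc it was 59.4 and 71.9 FPKM (ratio 1.21, 1.02 to 1.44). The class median was 0.29 on the log2 scale, but 3 of the 13 genes passed the floor only through their STAP-1 KO value and Hist1h2bl only through WT. The median was -0.04 over the 9 at 1 FPKM or above in both libraries.

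Hist1h2bg encodes the same protein as Hist1h2bc. Hist1h2bg was at 32.5 FPKM in WT and 29.3 FPKM in STAP-1 KO, with an interval of 0.640 to 1.28. The 3 genes for this protein, Hist1h2bc, Hist1h2bg and Hist1h2be, summed to 245 and 126 FPKM. Hist2h2bb, in the cluster on chromosome 3, was at 4.68 and 10.1 FPKM, a log2 ratio of 1.09 from 10 and 30 reads (1.02 to 4.93) that was 0.94 after correction for transcript length and GC content, and Hist2h2be, in the same cluster, was at 5.64 and 4.68 FPKM (0.632 to 1.09). Hist1h2bb was at 3.59 and 4.41 FPKM (0.472 to 3.42).

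The other H2B genes past 2-fold rested on few reads. Hist3h2ba was at 1.295 and 3.48 FPKM from an estimated 2.5 and 9.3 reads (0.556 to 25.5), and Hist1h2bn at 0.771 and 2.21 FPKM from 1 and 4 reads. Hist1h2bh and Hist1h2bj were both at 0.771 FPKM in WT and 3.31 FPKM in STAP-1 KO, which is 1 and 6 reads and a log2 ratio of 1.97 each (interval of the ratio 0.521 to 198). Hist1h2bl, the third of the lower members, was at 1.54 and 0.552 FPKM from 2 reads and 1 read, and its interval ran from 0.00607 to 6.88. No direction can be read for these genes at this depth. Hist1h2ba, the H2B gene of the testis, was listed at 0 in both libraries.

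H3 genes were the least abundant core class, with sums of 18.9 FPKM in WT and 22.1 FPKM in STAP-1 KO (ratio 1.17, 0.843 to 1.63), and the difference was not detectable at this depth. The class median log2 ratio was 0.13 over 6 genes, of which 2 passed the floor only through their STAP-1 KO value, and -0.36 over the 4 at 1 FPKM or above in both libraries. The libraries were also scaled to the same summed FPKM, with genes of very short annotated transcripts left out of the sums. The class median was then 0.29 over the same 6 genes, and -0.09 over 7 genes once Hist1h3f, which then passed the floor of 1 FPKM, was included. Hist1h3d was at 4.601 and 6.591 FPKM (7 and 14 reads), Hist1h3e at 5.26 and 3.77 FPKM (8 and 8 reads) and Hist1h3a at 2.46 and 2.05 FPKM (6 and 7 reads). With so few reads, none of these 3 ratios had a counting interval away from 1. Hist2h3c1 was at 2.97 FPKM in WT and 1.48 FPKM in STAP-1 KO, a log2 ratio of -0.96, and its interval of 0.286 to 0.852 lay below 1. After correction for transcript length and GC content its log2 ratio was -1.36, past 2-fold.

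At the low end of H3, Hist1h3i was at 0.485 and 2.78 FPKM, a log2 ratio of 2.30 from 1 and 8 reads (0.768 to 254). Hist1h3c was listed at 0 in WT and at 2.46 FPKM in STAP-1 KO, which is 7 reads. The only member listed at 0 in STAP-1 KO and not in WT, named after its value was seen, was Hist1h3b, at 0.657 FPKM or 1 read in WT.

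H4 was the class whose sum differed most upward. The 13 H4 genes summed to 61.5 FPKM in WT and 141 FPKM in STAP-1 KO, a ratio of 2.29 with a counting interval of 1.79 to 2.94 from about 87.2 and 279 reads. Hist1h4d (ENSMUSG00000061482.7, chr13:23581598-23582735, + strand) was at 38.8 FPKM in WT and 97.6 FPKM in STAP-1 KO, a log2 ratio of 1.33 and a ratio of 2.52 (1.86 to 3.45, about 56.3 and 198 reads). Without Hist1h4d the H4 sum was 22.7 and 43.1 FPKM, a ratio of 1.89.

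The next H4 genes by level lay in the same direction. Hist1h4c was at 8.75 and 17.9 FPKM, a log2 ratio of 1.02 with an interval of the ratio of 1.001 to 4.51. Hist1h4i was at 6.49 and 13.7 FPKM, a log2 ratio of 1.06 with an interval of 0.992 to 4.85. After each log2 ratio was set against the median of genes of like transcript length and GC content, these 3 H4 genes stood at 0.81, 0.55 and 0.84, all above 0 and all below the 2-fold line.

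The remaining H4 genes were low and mixed. Hist2h4 was at 2.84 and 3.39 FPKM, Hist1h4h at 2.97 and 1.77 FPKM and Hist4h4, the only gene of its cluster, at 0.449 and 0.966 FPKM. Hist1h4j was listed at 0 in WT and at 2.69 FPKM in STAP-1 KO, which is 6 reads.

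**Figure D4:**
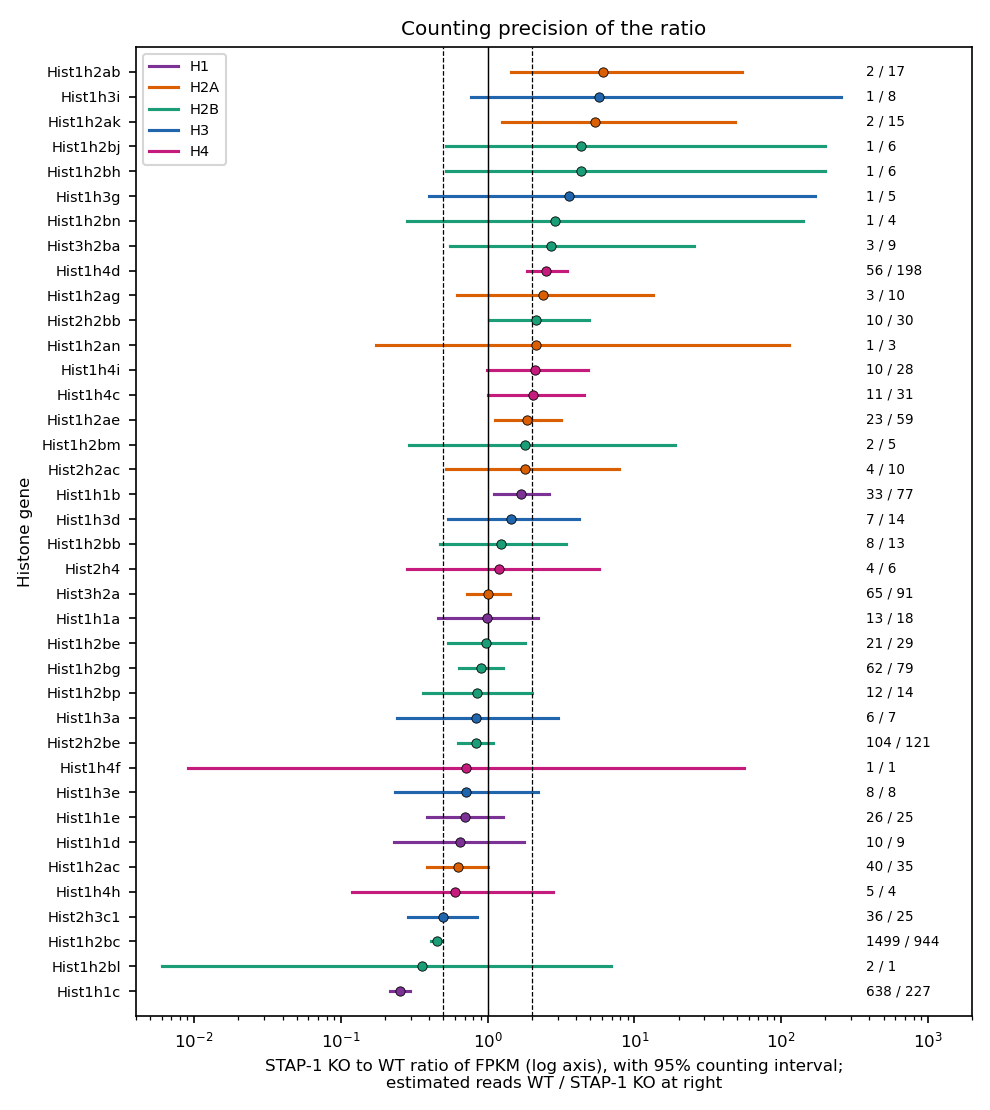
Ratio of STAP-1 KO to WT FPKM (log axis) for the 38 histone genes with a ratio, with 95% counting intervals (lines) and the estimated reads of WT and STAP-1 KO at the right. The intervals of Hist1h1c, Hist1h2bc and Hist1h4d are narrow and lie away from 1, while genes with 1 or 2 WT reads have the widest intervals.

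The levels were set beside the annotated 3′ ends. The length that the authors' annotation gave each gene is not known, so it is also not known whether reads over the stretch past the stem-loop entered the values, and several members with a long GENCODE transcript, such as Hist1h3d, gave whole reads at the coding length. The annotated transcript ran over 150 bases past the stop codon in 26 of 66 members, among them 9 of the 10 members that averaged 10 FPKM or more and 17 of the other 56. Hist1h1c, for example, has its stem-loop 24 bases after the stop codon and 840 annotated bases beyond it, and the annotated Hist1h2bc transcript is spliced to a second exon and held no stem-loop in the bases searched. A poly(A) signal (AATAAA or ATTAAA) was present in the last 40 bases of 14 of the 26 longer transcripts (53.8%), and of 70.6% of other protein-coding genes.

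The ratios of the 2 kinds of transcript were as follows, beside 11.2% of all genes higher and 21.9% lower (10.3% and 18.9% at 1 FPKM or above in both libraries). The 26 longer members summed to 554 FPKM in WT and 391 FPKM in STAP-1 KO, with a median log2 ratio of -0.04, 5 higher and 2 lower of 19. Without Hist1h1c and Hist1h2bc their sums were 178 and 254 FPKM, higher in STAP-1 KO. The 40 members whose annotation ends within 150 bases of the stop codon summed to 43.9 and 84.1 FPKM, with a median of 0.82, 9 higher and 1 lower of 19. Of those 9 higher members, 6 passed the floor only through their STAP-1 KO value and so had to lie above WT, against 1 of the 5 higher members with longer transcripts. The 1 lower of the shorter members, Hist1h2bl, passed only through WT, so its STAP-1 KO value had to lie below WT. At 1 FPKM or above in both libraries, 4 were higher and 2 lower of 18 longer members (median -0.09), and 3 were higher and none lower of 11 shorter members (median 0.74). The shorter members were lower in level and held closer copies (median 57.6% of windows shared, against 15.6%), and how far each of these properties moves with the ratio was not tested.

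**Figure D5:**
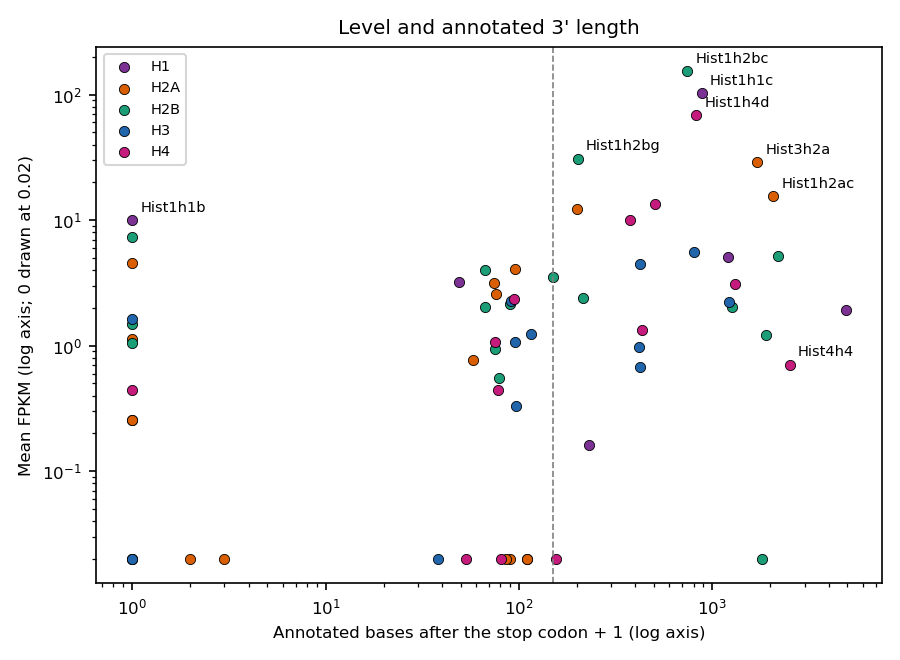
Mean FPKM of both libraries (log axis, genes at 0 drawn at 0.02) against the number of annotated bases after the stop codon plus 1 (log axis), for the 66 histone genes with a coding transcript. The dashed line is at 150 bases. Of the 10 genes at 10 FPKM or more, 9 lie to its right and Hist1h1b, with no annotated bases after its stop codon, lies to its left.

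Many H2A and H2B genes lie head to head and share the DNA between their starts. With a limit of 500 bases there were 12 such pairs, all of 1 H2A and 1 H2B gene, and both members had a ratio in 6 of them. In 3 of the 6 the ratios had the same sign, but this count is partly fixed by the floor, since Hist1h2bj, Hist1h2bn and Hist1h2an, each in 1 of the 6 pairs, had 1 WT read and passed only through their STAP-1 KO value. The other 3 pairs had both genes above 1 FPKM in each library. Hist1h2ac and Hist1h2bc, with starts 250 bases apart, had log2 ratios of -0.67 and -1.15. Hist1h2ae and Hist1h2bg, 175 bases apart, had log2 ratios of 0.89 and -0.14, and Hist2h2ac and Hist2h2be, 238 bases apart, of 0.82 and -0.27.

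Genes that act on histones or are used alongside them in S phase were taken from lists, and their counts stand against the 11.2% of all genes that were higher and the 21.9% that were lower (10.2% and 17.5% after correction for length and GC content). Of 34 S phase and DNA replication genes, all with a ratio, 15 were at least 2-fold higher and 1 lower (Pole, the catalytic subunit of DNA polymerase epsilon, 9.40 to 4.10 FPKM), 32 lay above 0 and the median log2 ratio was 0.96. Once corrected for length and GC content, the list had a median of 0.82, with 13 higher and none lower, and 6 of the 15 higher calls, Pcna among them, and that of Pole (-0.17) were lost. Pcna, the replication clamp, was at 51.5 and 104 FPKM, Rrm2, a subunit of ribonucleotide reductase, at 177 and 337 FPKM, and the helicase subunit Mcm2 at 93.9 and 152 FPKM. Ccne2, a cyclin of S phase entry, was at 23.6 and 38.1 FPKM. The 3 with the largest ratios were all subunits of the GINS complex of the replicative helicase, with Gins2 at 23.6 and 84.9 FPKM, Gins1 at 18.4 and 63.0 FPKM and Gins3 at 7.14 and 18.6 FPKM. The median of the histone genes was 0.40 over the 38 members with a ratio, 0.63 without Hist1h1c and Hist1h2bc, and 0.01 over the 29 at 1 FPKM or above in both libraries.

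Among 24 genes of histone mRNA transcription and 3′ end processing with a ratio, 4 were higher and 2 lower, with a median log2 ratio of 0.11. Of the 22 with a corrected value, 1 (Lsm11, at 1.19) was higher and none lower, and all 4 higher calls and the lower call of Upf1 (-0.30) were lost, while Zcchc6, the other lower gene, had no corrected value. Slbp was at 92.7 FPKM in WT and 177 FPKM in STAP-1 KO. Npat, the coactivator of histone gene transcription, was at 5.70 and 5.18 FPKM, Lsm11, of the U7 snRNP, at 2.01 and 2.29 FPKM, and Casp8ap2 (FLASH), a processing factor, at 8.05 and 7.10 FPKM. Eri1, the exonuclease that trims the stem-loop end, was at 53.5 and 57.1 FPKM. The largest ratios were those of Zcchc6, an uridylyltransferase, at 29.2 and 10.4 FPKM, and of the Sm proteins Snrpg, at 149 and 354 FPKM, and Snrpf, at 60.7 and 140 FPKM, which also serve the spliceosome.

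Of 22 histone chaperone and chromatin assembly genes, 8 were higher and 2 lower, with a median log2 ratio of 0.50. Nasp, a chaperone of H3 and H4, was at 36.8 and 105 FPKM, Asf1b, which passes H3 and H4 on at the replication fork, at 81.9 and 167 FPKM, Hat1, which acetylates new H4, at 102 and 253 FPKM, and Chaf1a, of the CAF-1 complex, at 26.3 and 37.0 FPKM. Ubn1, of the replication-independent HIRA complex, was at 16.4 and 5.75 FPKM, a log2 ratio of -1.50. After the correction 4 were higher and none lower. Of the 8 higher calls 6 were lost, Asf1b (0.68) and Hat1 (0.69) among them, and both lower calls, Ubn1 (-0.34) and Cabin1 (0.05), while Chaf1a (1.64) passed 2-fold.

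Of 11 histone variant genes outside the replication-dependent set with a ratio, 3 were at least 2-fold higher, none lower and 8 within 2-fold. The median log2 ratio was 0.74, and 0.50 after the correction, when H2afv (0.91) was no longer past 2-fold and H1f0 (-1.09) was. H2afy (macroH2A1) was at 180 FPKM in WT and 631 FPKM in STAP-1 KO and H2afv at 30.4 and 82.7 FPKM, and the low macroH2A2 gene H2afy2 was at 0.392 and 1.74 FPKM. H2afy2, 1 of the 3 higher, passed the floor of 1 FPKM only through its STAP-1 KO value and so had to lie above WT. H2afz was at 93.3 and 147 FPKM, H2afx, 1 of the 20 other genes with a stem-loop after the stop codon, at 79.2 and 144 FPKM, H3f3a at 71.2 and 119 FPKM and H3f3b at 575 and 796 FPKM. H1f0, the linker histone of non-dividing cells, was at 86.2 and 51.2 FPKM, a log2 ratio of -0.75. H3f3b alone stood at about the level of all 67 replication-dependent genes summed in WT (599 FPKM), and above their sum in STAP-1 KO (476 FPKM). That sum is mainly of polyadenylated molecules and is not a measure of total histone mRNA.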

How the data were processed

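RNA was measured by 75-base single-end sequencing in 1 WT and 1 STAP-1 KO library. The authors deposited FPKM values per gene, made by mapping to mm10 with TopHat2 2.0.13 and Bowtie2 2.2.3 and running Cuffnorm (Cufflinks 2.2.1), per the processing notes. The gene annotation and the treatment of reads that fit several places are not given in the sources used here. FPKM were compared as deposited in Python 3.11.15 (numpy 2.4.6, pandas 2.3.3, scipy 1.17.1) with a pseudocount of 0.1 FPKM, a mean of at least 1 FPKM and the study's 2-fold cut-off; no genotype test is possible. The steps were checked on simulated data. Named members were the 5 most abundant per class, the 5 highest and 5 lowest ratios, members near 0 in 1 library only, and testis and single-copy genes; for lists, defining genes and the 3 largest ratios. Members and lists were chosen with earlier results of these data known. Scaling, floors, pseudocount, length, GC content and shared sequence were varied.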

Additional observations from a re-analysis of the deposited data

How the results depend on the processing

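The median log2 ratio of the members (0.40) stayed above 0 under all 12 alternatives, between 0.01 and 0.54. The low end, at 1 FPKM or above in both libraries, was near the median of all genes (-0.01). The high end came from scaling to the same summed FPKM, which put the median of all genes at 0.13. The 14 higher of 38 members (36.8%) became 6 of 38 with a pseudocount of 1 FPKM (15.8%, all genes 9.18%), 9 of 38 after correction for transcript length and GC content (23.7%, all genes 10.2%; all 9 with at most 3 estimated WT reads), 4 of 14 at a mean of at least 5 FPKM (28.6%, all genes 10.6%) and 8 of 30 with under 50% shared windows (26.7%, all genes 11.2%). After the length and GC correction 4 of 38 members were lower (10.5%, all genes 17.5%), Hist2h3c1 among them. At 1.5-fold 18 members were higher and 7 lower (all genes 25.2% and 32.1%), and at 4-fold 3 and 0 (all genes 1.76% and 8.10%). Of the alternatives added after the data were seen, at least 10 estimated reads left 7 higher of 24 (29.2%, all genes 11.2%) and at least 1 FPKM in both libraries 7 of 29 (24.1%, all genes 10.3%). For scaling to the same summed FPKM, genes with very short annotated transcripts were left out of the sums. This scaling moved the median of all genes by 0.17 and the ratio of the summed histone FPKM from 0.795 to 0.894. As deposited, that ratio was 0.984 without Hist1h2bc, and without Hist1h2bc and Hist1h1c it reversed to 1.52. No paired analysis was possible because there was 1 library per genotype, and no replicate could be left out.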
